A study of Homo sapiens with 4 samples.

Results

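The extended major histocompatibility complex (MHC) and the large histone gene cluster lie side by side on the short arm of human chromosome 6, and 215 of the 100205 regions that gained accessibility with at least 1 drug had their midpoint there, between 25.7 and 33.5 Mb (GRCh37). The 7.8 Mb interval was cut at fixed positions. The histone genes took 26-26.3 and 27.7-27.9 Mb, class I took 29.6-31.45 Mb, class III took 31.45-32.3 Mb and class II took 32.3-33.1 Mb, and 4 remaining stretches lay before, between and after them. Regions were chosen by position and by being listed as gained, not by which drug had gained them.

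The regions come from ATAC-seq, in which a transposase inserts sequencing adapters into accessible DNA, on K562, an established cell line from a human myeloid leukaemia. Cells were exposed for 4 h to Doxo (doxorubicin, 10 µM), to diMe-Doxo (its N,N-dimethyl form, 10 µM) or to Acla (aclarubicin, 20 µM), and control cells were left untreated, with 1 GEO sample per group. For each drug the authors listed the regions where 2 treated libraries exceeded 2 control libraries (log2 fold 1.5 or more, p 0.05 or less), so regions that lost signal or missed these limits were not analysed here. Whether the paired libraries are separate cultures is not stated, so a p-value measures only spread between libraries, which may be technical. In the edgeR test below this spread was a trend pooled over all regions tested, not the spread at each region.

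The histone cluster holds many copies of the core and linker histone genes, which are transcribed during DNA replication to supply new nucleosomes. The MHC is read as 3 neighbouring classes. Class I genes encode molecules that present peptides from inside the cell to killer T cells, class II genes encode those that present taken-up antigen to helper T cells, and class III holds a dense set of genes that includes complement components and tumour necrosis factor. K562 cells are known for very low surface levels of classical class I and class II molecules. Anthracyclines intercalate into DNA, and they are known to evict histones from chromatin. On the RefSeq annotation of GRCh38.p14, chromosome 6 carries 55 protein-coding histone genes, 8 class I genes and 13 class II genes of the families looked up. No coordinate of that build was placed on these regions, so the regions are given by position and not by gene. Whether all 55 histone genes lie inside the blocks called histone genes was therefore not checked.

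Gain in the interval was mostly a Doxo gain. Doxo gained 208 of the 215 regions, diMe-Doxo 54 and Acla 48. Doxo therefore held 96.7% of the gained regions of the interval, against 66.6% of those over all chromosomes. The share of diMe-Doxo was 25.1% in the interval, against 52.7% over all chromosomes, and that of Acla was 22.3%, against 61.2%. Regions gained with Doxo alone made up 152 of the 215, or 70.7% (exact 95% binomial interval 64.1% to 76.7%), while this class was 29.5% of all gained regions and 26.0% of the 6347 on the rest of chromosome 6. The 37 regions gained with all 3 drugs were 17.2%, against 28.7% over all chromosomes. Regions gained with Acla alone numbered 2 (0.930%, against 13.8% over all chromosomes), and those shared by diMe-Doxo and Acla without Doxo also numbered 2 (0.930%, against 14.6%). The other classes were small: 12 regions were gained with Doxo and diMe-Doxo (5.58%, against 4.4%), 7 with Doxo and Acla (3.26%, against 4.04%) and 3 with diMe-Doxo alone (1.40%, against 4.97%). These intervals cover counting error only, and neighbouring regions are not independent of each other. A region gained with Doxo alone is one that the other lists do not hold, and its signal under the other drugs was not analysed here.

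**Figure D1:**
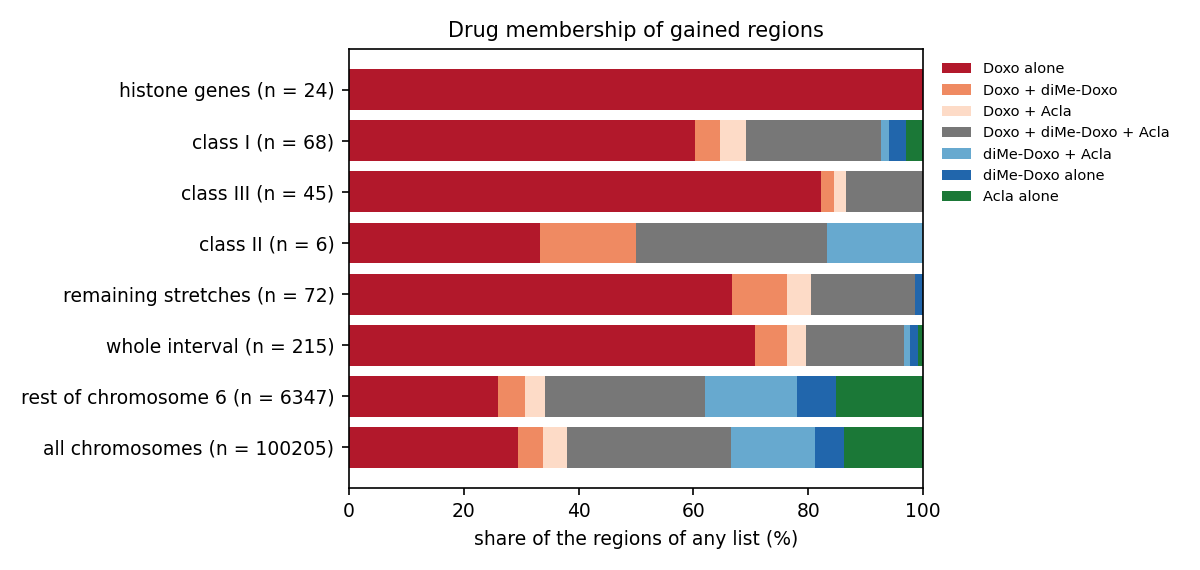
Share of gained regions (x axis, percent) in each class of drug membership, for the segments of the interval, the whole interval, the rest of chromosome 6 and all chromosomes; n is the number of regions in any list. Regions gained with Doxo alone fill the histone bar and 82.2% of the class III bar, against 29.5% over all chromosomes.

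Set per length, the interval held Doxo regions at a density near that of the other chromosomes and diMe-Doxo and Acla regions at a lower one. Doxo gained 26.7 regions per Mb in the interval, against 24.1 per Mb on the rest of chromosome 6 and 22.6 per Mb over all chromosomes. diMe-Doxo gained 6.92 per Mb in the interval, against 21.6 and 17.9, and Acla gained 6.15 per Mb, against 24.4 and 20.8. Lengths outside the interval run from the first to the last listed region of each chromosome. At the matched dose of 10 µM the count of Doxo regions was 3.85 times that of diMe-Doxo in the interval. The same ratio was 1.12 on the rest of chromosome 6 and 1.26 over all chromosomes. Acla was given at 20 µM, so its counts stand beside the others without a comparison between drugs. With 1 GEO sample per group these counts have no replicate test.

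**Figure D2:**
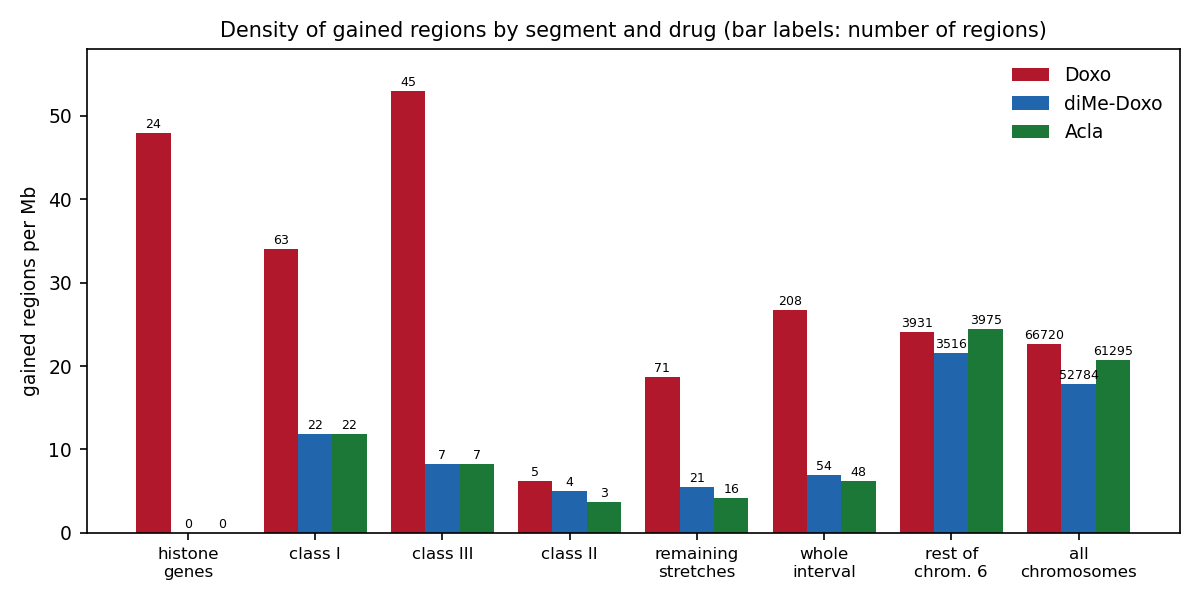
Gained regions per Mb (y axis) for each drug in the segments of the interval, the whole interval, the rest of chromosome 6 and all chromosomes, with the number of regions above each bar. Doxo stands at 48 per Mb in the histone genes and 52.9 per Mb in class III. Both diMe-Doxo and Acla are at 0 in the histone genes and at 8.24 per Mb in class III.

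The 2 histone gene blocks held 24 gained regions in 0.5 Mb, and every one was gained with Doxo alone (24 of 24, exact 95% binomial interval 85.8% to 100%). That is 48 Doxo regions per Mb, with 60 per Mb (18 regions) in the first block and 30 per Mb (6 regions) in the second. diMe-Doxo and Acla had 0 of 24, which allows a share of up to 12.5% for each by the limit of 3 counts and 14.2% by the exact 95% interval. The median of the authors' log2 fold at the 24 regions was 2.88, close to the 2.95 of the whole Doxo list. Both medians cover only regions that had passed the authors' fold limit, so they say little about the size of the gain. The density was not the highest of the named segments, since class III had 52.9 Doxo regions per Mb. No other named segment had all of its regions gained with Doxo alone. The histone regions were narrow, with a median width of 460 bp. That of all gained regions was 766 bp, and that of regions gained with Doxo alone over all chromosomes was 600 bp. The authors called a peak in both Doxo libraries at 23 of the 24 (95.8%), against 63.4% of the whole Doxo list.

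The histone region with the lowest authors' false discovery rate (FDR) was chr6:26272193-26273185. It had 81 and 87 reads in the Doxo libraries, against 1 and 1 in the control libraries. Its authors' log2 fold was 5.39 (FDR 2.25e-06). A control value of 1 read may stand for no read, so this fold rests on the lowest value the lists hold, and the counting interval of the linear ratio of 42.0 ran from 11.4 to 350. Other histone regions, chosen after their values were seen, show the range. At chr6:26240317-26241180 the Doxo libraries had 85 and 68 reads and the control libraries 1 and 1. The most reads fell on chr6:26165476-26166834, with 216 and 229 in the Doxo libraries against 5 and 45 in the control libraries, and here the authors called a peak in both controls. Its authors' log2 fold was 2.18 (FDR 0.0636). The lowest fold, 1.52, was at chr6:26196552-26196967, with 72 and 84 reads in the Doxo libraries against 18 and 9 in the control libraries. In the second block, chr6:27730093-27730578 had 45 and 40 reads in the Doxo libraries against 1 and 4 in the control libraries. At chr6:27840866-27841372 the Doxo libraries themselves were uneven, with 20 and 47 reads, against 1 and 1 in the control libraries. A control peak was called at 2 of the 24 histone regions.

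**Figure D3:**
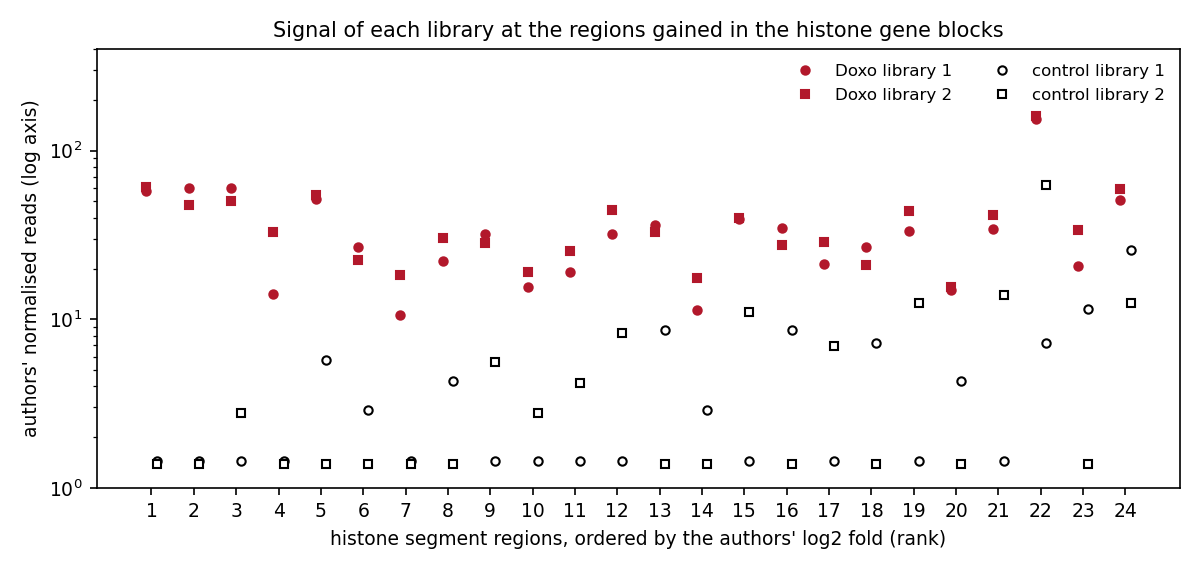
Authors' normalised reads (y axis, log scale) in each of the 2 Doxo and 2 control libraries at the 24 gained regions of the histone blocks, ordered by the authors' log2 fold (x axis, rank). Filled points are Doxo and open points control libraries, and the 2 Doxo values lie above the 2 control values at every rank, as they do at 66689 of the 66720 regions of the whole Doxo list.

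At the authors' limits class III was the densest MHC segment, with 45 regions in 0.85 Mb, all gained with Doxo (52.9 per Mb). Of these, 37 (82.2%) were gained with Doxo alone. At an FDR of 0.01 or less and a log2 fold of 2 or more, class III kept 15 Doxo regions in 0.85 Mb. Class I kept 36 in 1.85 Mb, so class III was then no longer the densest. Among the 15 class III regions with an FDR of 0.01 or less and a log2 fold of 2 or more in the Doxo list, a limit tried after seeing the data, 8 (53.3%) were in no other list. diMe-Doxo and Acla each gained 7 (8.24 per Mb). The median authors' log2 fold with Doxo was 2.46, lower than in any other named segment, and the regions were wide, with a median of 1013 bp. The widest member of all 3 lists, chr6:32062782-32066037 (3255 bp), lay here. It had 638 and 642 reads in the Doxo libraries, 268 and 211 in the diMe-Doxo libraries and 264 and 359 in the Acla libraries, against 18 and 3 in the control libraries. The authors' log2 folds were 4.91 with Doxo, 2.13 with diMe-Doxo and 2.01 with Acla. Reads in the text are as counted, before the authors' scaling, so their order across drugs need not follow that of the folds. The lowest FDR of the segment with Doxo (9.18e-10) was at chr6:32116918-32119680, which had 576 and 563 reads in the Doxo libraries, 173 and 117 in the diMe-Doxo libraries and 219 and 249 in the Acla libraries, against 8 and 7 in the control libraries. There the authors' log2 folds were 5.25, 1.97 and 2.15 in the same order of drugs. For both other drugs the lowest FDR was at chr6:32056185-32057303, with 162 and 170 reads for Doxo, 106 and 69 for diMe-Doxo and 127 and 125 for Acla, against 1 and 3 in the control libraries. The largest class III region gained with Doxo alone by reads, named after its values were seen, was chr6:31854464-31857206. It had 620 and 697 reads in the Doxo libraries against 9 and 45 in the control libraries, with an authors' log2 fold of 3.63, and the authors called a peak in both controls.

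The 2 control libraries were uneven over these regions, in class III and in the stretch after class II above all. At the class III regions gained with Doxo, control library 1 had 211 reads in all and control library 2 had 499. Over the 208 Doxo regions of the interval the sums were 683 and 1381, while over the whole Doxo list they were 248362 and 253175. The higher control library had at least 5 times the reads of the lower at 62.5% of the regions after class II, 57.8% of the class III regions and 41.4% of the regions of the interval, against 28.0% of all gained regions. At chr6:31655067-31657306, chosen after its values were seen, the Doxo libraries had 376 and 391 reads, against 9 and 79 in the control libraries. Without control library 1, 34 of the 45 class III regions kept a log2 fold of at least 1.5 with Doxo, and without control library 2, 42 did. For the histone blocks 22 of 24 did in each case. Over the whole Doxo list 63291 of 66720 regions did without control library 1 and 62971 without control library 2. The part of this unevenness in the authors' folds was not tested beyond these counts.

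Class I, the longest named segment, held 68 gained regions in 1.85 Mb. Doxo gained 63 of them (34.1 per Mb), and diMe-Doxo and Acla gained 22 each (11.9 per Mb each). Regions gained with Doxo alone were 41 of the 68 (60.3%). The median authors' log2 fold with Doxo was 2.99, near that of the whole list. The lowest FDR with Doxo (6.51e-06) was at chr6:29974689-29975723, which Doxo and Acla gained. The Doxo libraries had 64 and 91 reads there and the Acla libraries 62 and 52, against 1 and 1 in the control libraries. For diMe-Doxo and Acla it was at chr6:29938480-29940060, with 87 and 82 reads for Doxo, 143 and 86 for diMe-Doxo and 160 and 162 for Acla, against 3 and 1 in the control libraries. The authors' log2 folds at this region were 4.39 with Doxo, 3.48 with diMe-Doxo and 3.47 with Acla, so the region stood in all 3 lists. Of the 7 regions of the interval that Doxo did not gain, 5 lay in class I.

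Class II held few gained regions with any drug. Doxo gained 5, diMe-Doxo 4 and Acla 3 of the 6 regions in 0.8 Mb, or 6.25, 5 and 3.75 per Mb, each below the density of the same drug over all chromosomes. In this segment the counts of Doxo and diMe-Doxo were near each other (ratio 1.25, against 1.26 over all chromosomes). The lowest FDR for all 3 drugs was at chr6:32974209-32976421. It had 85 and 66 reads in the Doxo libraries, 154 and 74 in the diMe-Doxo libraries and 154 and 171 in the Acla libraries, against 5 and 3 in the control libraries. The authors' log2 folds were 3.23 with Doxo, 2.50 with diMe-Doxo and 2.51 with Acla. At chr6:32502384-32503503, named because only 2 regions of the interval have its membership, diMe-Doxo had 47 and 57 reads and Acla 73 and 49, against 1 and 3 in the control libraries, and Doxo did not list it. No Doxo region was listed over the 605 kb from 32191605 to 32796474, its longest stretch without one in the interval.

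The remaining stretches held 72 regions in 3.8 Mb, of which Doxo gained 71, diMe-Doxo 21 and Acla 16. The 0.4 Mb after class II was dense for Doxo, at 40 per Mb (16 regions), against 7.5 per Mb for diMe-Doxo and 5 per Mb for Acla. Its 2 control libraries were also uneven, with 66 and 236 reads over those 16 regions. Between the histone blocks Doxo gained 15 regions in 1.4 Mb, with the highest median authors' log2 fold of any stretch with more than 1 region, at 3.66. The largest authors' log2 fold in the interval, 6.45, belonged to chr6:26760890-26762402, gained with Doxo alone. This region had 236 and 290 reads in the Doxo libraries, against 2 and 1 in the control libraries. The lowest FDR for diMe-Doxo and Acla in these stretches was at chr6:29496208-29497615, just before class I. Doxo had 138 and 162 reads there, diMe-Doxo 190 and 126 and Acla 226 and 218, against 4 and 1 in the control libraries, with authors' log2 folds of 4.89, 3.61 and 3.60 in that order.

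The gained regions were spread unevenly along the interval. Of 78 windows of 100 kb, 61 held a Doxo region, 24 a diMe-Doxo region and 21 an Acla region, and 16 held none, with fewer regions to place for diMe-Doxo and Acla. Doxo had more regions than diMe-Doxo in 53 windows and fewer in 3. The most gained regions in a window were 9, reached by 3 windows. The window at 26.1-26.2 Mb, in the first histone block, held 9 Doxo regions and none of the other drugs. That at 30.8-30.9 Mb, in class I, had 9 regions for Doxo and 4 for each of the other drugs. That at 29.4-29.5 Mb, just before class I, had 8 for Doxo and 7 for each of the other drugs, and 1 of its regions was gained with Doxo alone. Windows at 30.6-30.7 and 31.6-31.7 Mb, chosen after their values were seen, each held 8 regions, all gained with Doxo alone. The longest stretch with no gained region of any list ran 478 kb from 26799358 to 27277166. diMe-Doxo had none for 1376 kb from 28059330 to 29435811, and Acla none for 1946 kb from 27316864 to 29262981.

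**Figure D4:**
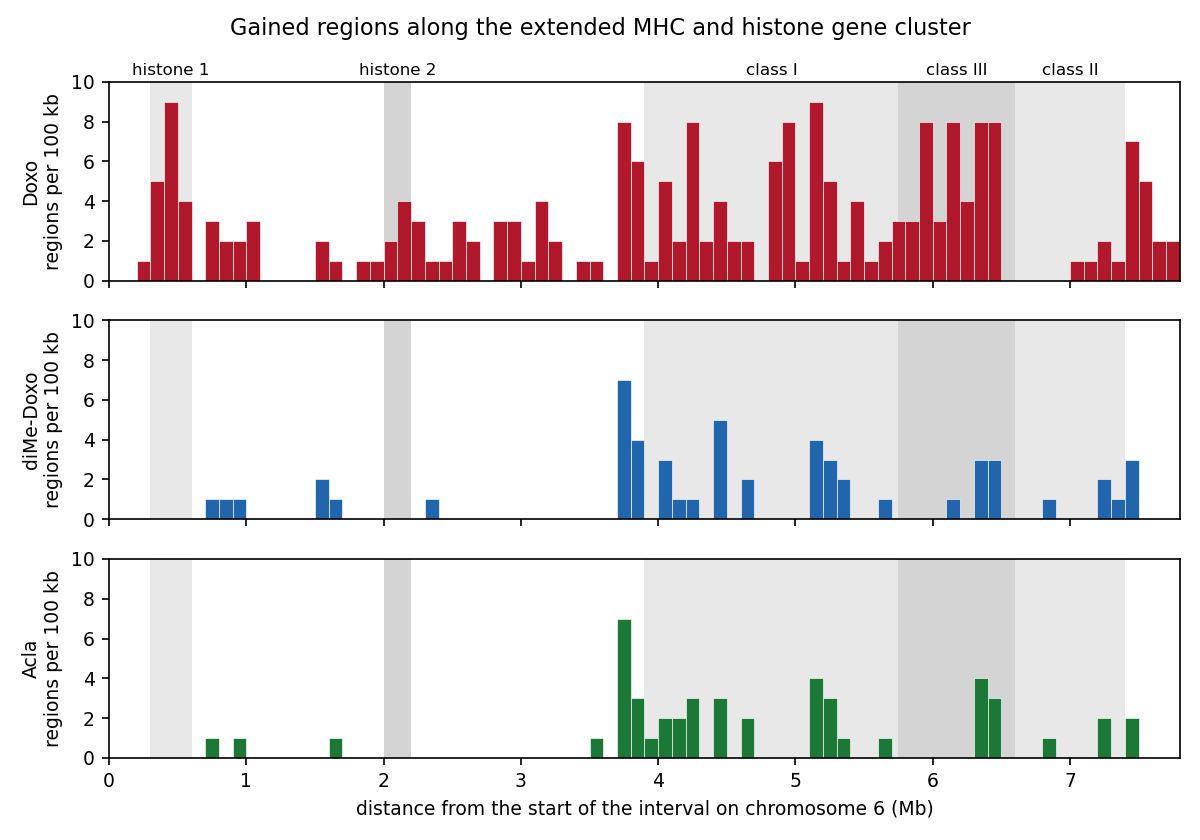
Number of gained regions per 100 kb window (y axis) against distance from the start of the interval (x axis, Mb), one panel per drug, with the named segments shaded. Doxo reaches 9 regions in a window and fills 61 of 78 windows, while diMe-Doxo and Acla reach 7 and leave the histone blocks empty.

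The edges of the interval fell in gaps between regions. The last region before it, chr6:25678779-25679925, was gained with all 3 drugs, with authors' log2 folds of 2.37 (Doxo), 2.31 (diMe-Doxo) and 2.91 (Acla). The first inside, chr6:25997929-25998926, was gained with Doxo (3.12). The last inside, chr6:33409098-33411821, and the first after it, chr6:33541946-33542276, were gained with Doxo at log2 folds of 3.54 and 2.96.

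With both control libraries in use, the median of the authors' folds was no higher here than in the whole lists. At the members of the interval the authors' log2 fold had a median of 2.87 with Doxo, against 2.95 in the whole Doxo list. Without control library 1 the Doxo median at the members was 2.69, and without control library 2 it was 3.76. The whole-list medians without a control library are not given here, so these values have no comparison. With both controls the member median was 2.38 with diMe-Doxo, against 2.52, and 2.24 with Acla, against 2.62. An FDR of 0.01 or less with a log2 fold of 2 or more was reached by 100 of the 208 Doxo members, against 48.8% of the whole list, by 17 of the 54 diMe-Doxo members, against 38.1%, and by 16 of the 48 Acla members, against 42.8%. Both Doxo libraries lay above both control libraries at 208 of 208 members and at 66689 of the 66720 regions of the whole list (100 percent after rounding), so nearly every listed region has this order. At the 37 regions gained with all 3 drugs it was 3.23 with Doxo, 2.50 with diMe-Doxo and 2.25 with Acla, against 3.13, 2.82 and 2.95 at all regions gained with all 3. The lists share their 2 control libraries, so the folds of different drugs at 1 region are not independent. Some of the members already had a peak in untreated cells. The authors called a control peak at 40 of the 215 (18.6%), against 14.1% of all gained regions, and at 13 of the 45 class III regions (28.9%). In the 2 largest classes of membership the share was not higher in the interval, at 21.1% of its regions gained with Doxo alone, against 24.3% of that class over all chromosomes, and 10.8% of those gained with all 3 drugs, against 11.2%. Both control libraries stood at 1 read at 15.8% of the members, against 28.8% of all gained regions.

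Doxo and diMe-Doxo, given at the same dose and for the same time, were compared directly at the regions that both had gained, with edgeR's quasi-likelihood test on recovered reads and Benjamini-Hochberg adjustment over all 33140 such regions. In the interval 49 regions could be tested, and this was the only pair of drugs tested. Signal was higher with Doxo at 26 of the 49 and lower at 0 (27 and 0 at an unadjusted p under 0.05). Over all regions tested 28.9% were higher and 2.72% lower with Doxo. The median log2 difference was 0.84 at the members, against 0.28 over all regions tested. By another scaling, the trimmed mean of M-values (TMM) over all regions in both lists, 22 members were higher and 1 lower, against 23.6% and 10.6% of all regions, and the medians were 0.51 at the members and -0.05 over all. The same 22 regions were higher under both scalings. DESeq2 with its own size factors gave 17 higher and 0 lower, against 6484 and 1514 of all 33140 regions. An edgeR fit that also held the control libraries gave 20 higher and 0 lower, against 7991 and 470 of all 33140 regions. The histone blocks held no region of both lists and took no part in this test.

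Class III had the widest differences between the 2 drugs. There 6 of 7 tested regions were higher with Doxo, with a median log2 difference of 2.09, and 6 were higher under TMM as well. In class I 8 of 19 were higher (median 0.47), and 6 were under TMM. In class II 1 of 3 was higher, and 0 under TMM. In the remaining stretches 11 of 20 were higher (median 0.90). The largest difference was at the class III region chr6:32116918-32119680 described above, at 3.26 ± 0.22 on the log2 scale (SE, edgeR adjusted p = 2.26e-46). The widest member, chr6:32062782-32066037, followed with 2.71 ± 0.21 (SE, edgeR adjusted p = 4.85e-35). The third was chr6:26613282-26614918, between the histone blocks, with 111 and 146 reads in the Doxo libraries and 77 and 32 in the diMe-Doxo libraries, against 2 and 4 in the control libraries. Its log2 difference was 2.52 ± 0.27 (SE, edgeR adjusted p = 5.03e-20). With the control libraries in the same fit, the differences at these 3 regions stayed at 3.26, 2.71 and 2.52. The edgeR adjusted p there was far less extreme, at 3.60e-05, 3.72e-04 and 1.01e-04. Reads are given as counted. As deposited, the authors' factors were 0.711 and 0.704 in the Doxo list, 0.446 and 0.460 in the diMe-Doxo list and 0.374 and 0.384 in the Acla list. Those of the control libraries were 1.44 and 1.39, 2.41 and 2.03, and 2.85 and 2.44 in the same order of lists. For the test the Doxo and diMe-Doxo factors were set to the shared controls. A Doxo read then weighed 0.503 and 0.498 and a diMe-Doxo read 0.202 and 0.208.

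No member passed the test in the other direction, and 4 of the 49 had a log2 difference below 0. The 3 with the lowest adjusted p on that side were not told apart between the drugs. At chr6:29474124-29475578 the Doxo libraries had 53 and 38 reads and the diMe-Doxo libraries 145 and 129, against 4 and 5 in the control libraries. The log2 difference was -0.30, with a 95% interval of -0.86 to 0.26 (edgeR adjusted p = 0.499), and this is the region that TMM scaling called lower with Doxo (-0.63, edgeR adjusted p = 0.0452). At chr6:29506182-29507050 the difference was -0.29, with an interval of -1.12 to 0.54 (edgeR adjusted p = 0.694). The Doxo libraries were uneven there, with 29 and 8 reads, while the diMe-Doxo libraries had 65 and 46. At chr6:30386041-30386718 the Doxo libraries had 27 and 3 reads and the diMe-Doxo libraries 48 and 40, and the difference was -0.26, with an interval of -1.16 to 0.64 (edgeR adjusted p = 0.757). Without Doxo library 1 the differences at the last 2 regions were -1.50 and -2.57, and without Doxo library 2 they were 0.36 and 0.59. Their sign thus depended on which Doxo library was left out. The intervals above rest on the pooled spread and do not widen where the libraries of a region are uneven.

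**Figure D5:**
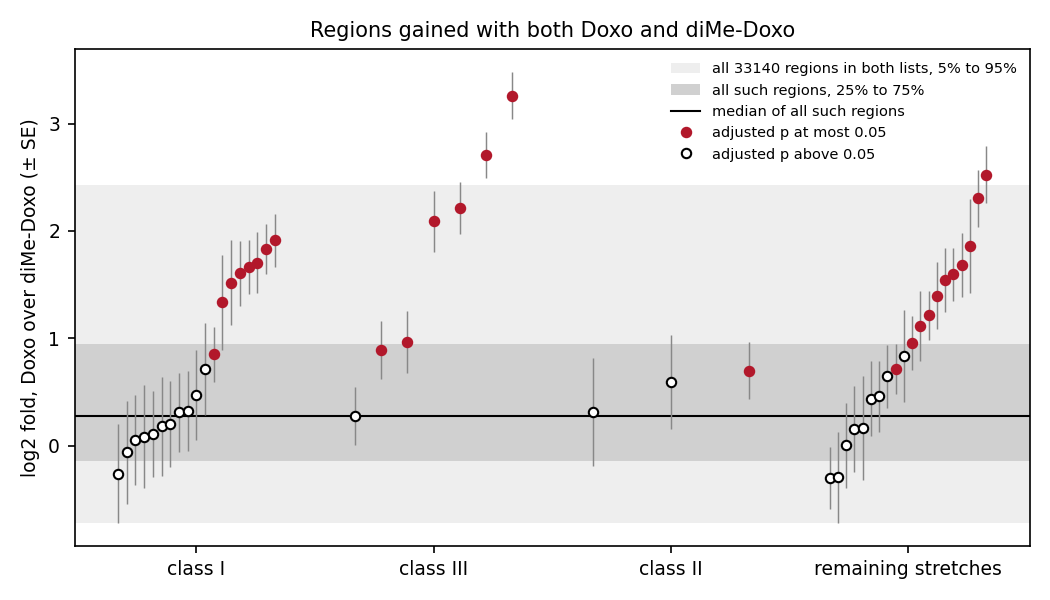
Log2 difference of Doxo over diMe-Doxo with its SE (y axis) at the 49 regions of the interval gained with both drugs, by segment, with filled points for an edgeR adjusted p of at most 0.05 and bands for all 33140 regions in both lists. In class III 6 of 7 points are filled, and the highest stands at 3.26.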

How the data were processed

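The authors' 3 deposited lists cover K562 cells treated with Doxo, diMe-Doxo or Acla against untreated control, on GRCh37, with DiffBind named in the submitters' processing notes. For aligner, peak caller and versions, nothing is given in the sources used here. Without a header, columns were identified from their values. The authors' deposited fold and mean levels are log2 values, the p-value and FDR are the authors', the signal per library is a read count times 1 factor, and the number of libraries with a called peak is the authors' count. In all 3 lists 100% of the deposited signal values gave whole reads within 0.1, and recovered reads went into the count test. Reads inside listed regions ran from 3534855 to 7266289 per treated library, and full depth is unknown.

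Members were taken by midpoint, and regions of different lists that share at least 1 bp counted as 1 (0 overlapped in part). Shares carry exact (Clopper-Pearson) intervals. Doxo and diMe-Doxo were compared with edgeR 4.0.16 in R 4.3.3 on the authors' factors, set to the shared controls, with Benjamini-Hochberg adjustment at 0.05. With 2 residual degrees of freedom per region, edgeR gave all regions 1 common trend of spread, and the SE was derived from the F statistic. The script was tested on simulated data. TMM, DESeq2 1.42.0, a fit that also held the control libraries, stricter limits, pseudocounts and left-out libraries were alternatives. Named regions were those with the lowest FDR per segment and list, the 3 with the lowest adjusted p in each direction, the widest members and the densest windows. Members and lists were chosen with earlier results of these data known. The rules for genes were not applied and no sequence is shown, since no GRCh37 reference was used here.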

Additional observations from a re-analysis of the deposited data

How the results depend on the processing

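With stricter limits (FDR 0.01 or less, log2 fold 2 or more) Doxo kept 100 regions, diMe-Doxo 17 and Acla 16, and the share gained with Doxo alone became 80% (39.8% over all chromosomes). Limiting only the Doxo list in this way left 65 of 100 regions with Doxo alone (65%, against 41.5% over all chromosomes), with 13 of 13 in the histone blocks, 22 of 36 (61.1%) in class I and 8 of 15 (53.3%) in class III, an alternative chosen after seeing the data. Taking the same number of regions from each list, also chosen after seeing the data, gave 66.5%, against 26.6% over all chromosomes. A pseudocount of 1 moved the median log2 fold with Doxo to 2.56, and one of 5 moved the medians to 1.98 (Doxo), 1.61 (diMe-Doxo) and 1.69 (Acla). Leaving out 1 library, chosen after seeing the data for the folds, gave medians from 2.69 to 3.76 (Doxo), 2.17 to 2.78 (diMe-Doxo) and 2.30 to 2.86 (Acla), the highest without control library 2. A peak in both controls was called at 9.77% of the members. Members higher with Doxo than with diMe-Doxo numbered 17 by DESeq2, from 19 to 26 without 1 library and from 16 to 23 without 1 library under TMM. Members lower numbered 1 by TMM, from 0 to 2 without 1 library and from 0 to 3 without 1 library under TMM. The TMM fits without a library were chosen after seeing the data. The cause of these shifts was not tested. No paired analysis was possible because the groups have 1 GEO sample each and the library columns carry no shared number. The controls' few reads limit every fold, and counts in a list without replicates carry no test.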
